A study of Mus musculus with 2 samples.

Results

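The comparison described here is that of bulge stem cells of the hair follicle with floxed and with intact Phgdh alleles in unwounded mouse skin. Its members are the cells that carry the hashtag of either unwounded condition: 267 cells labelled Phgdh +/+ and 602 labelled Phgdh fl/fl, which are 869 of the 5887 cells that met the same rule in all 6 conditions. A barcode counted as a cell with 1000 or more gene UMIs (unique molecular identifiers, 1 per captured transcript), 500 or more genes and no more than 10% of UMIs from mitochondrial genes, and it was given to the hashtag that held at least 20 UMIs and at least 70% of its hashtag UMIs.

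The mice were on the background labelled C57B6/J and carried the alleles Sox9-CreER and R26-LSL-YFP with either Phgdh +/+ or Phgdh fl/fl. Controls therefore carry the Cre and the reporter too and differ by the labels only in the Phgdh alleles. Sox9-CreER is active in hair follicle cells that express Sox9, and YFP marks cells in which it recombined the reporter, which need not be the cells that recombined both Phgdh alleles. The unwounded cells were sorted as live (DAPI negative), without CD31, CD45, CD117, CD140a or SCA1 on the surface, high for integrin-α6 and positive for CD34, CD200 and YFP. The 4 other hashtags hold YFP-positive cells from skin at 3 and 5 days after wounding, sorted without the gates on SCA1, CD34 and CD200, and are used only for values set side by side. The labels give the mice as male and female pooled, with no number of animals per hashtag. With at least 2 Xist UMIs and at most 1 UMI of Y-linked genes as the call for a female cell, and the reverse for a male cell, 0 cells of either unwounded pool were female and 139 +/+ and 262 fl/fl cells were male, while the remaining cells met neither call, so a female cell was not detected at this depth in either pool. In the wounded +/+ pools 420 cells at 3 days and 343 at 5 days were called female and in the wounded fl/fl pools 0, so the wounded pools compared also differed in sex, whose part in the wounded values was not tested.

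Each genotype is 1 hashtagged pool of 1 capture, so there is no replicate and no test. Animal, preparation and genotype cannot be told apart, "higher" and "lower" describe these 2 pools only, and every interval covers counting error alone. The barcodes of the pair of hashtag antibodies, which are all that tells the genotypes apart in the matrix, were 15 bases long and differed at 11 of them.

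CMO301, unwounded Phgdh +/+: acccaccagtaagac

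CMO302, unwounded Phgdh fl/fl: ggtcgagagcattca

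PHGDH, phosphoglycerate dehydrogenase, takes a glycolytic intermediate into the first step of serine synthesis, and PSAT1 and PSPH complete the pathway. Serine feeds proteins, glycine, folate one-carbon units, glutathione and sphingolipids, and amino acid shortage is sensed by the kinase GCN2, which through eIF2α raises translation of the transcription factor ATF4. Bulge stem cells lie in the resting follicle, are marked by CD34, LGR5 and keratin 15, and are held in quiescence between hair cycles. Immediate early genes such as Fos, Jun, Egr1 and Atf3 are switched on within minutes of a growth factor, mechanical or stress signal, and they are also known to be switched on while tissue is dissociated and sorted.

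The 2 pools were alike in depth per cell, mitochondrial share and free RNA. They differed in size and in the share of cells with few ribosomal UMIs. The +/+ cells held 2131534 UMIs with a median of 7210 UMIs and 2692 genes per cell, and the fl/fl cells held 4838928 UMIs with medians of 7341.5 and 2644.5. Median mitochondrial shares were 4.90% and 4.99%, and free RNA was estimated to make up 3.21% and 3.18% of UMIs. Levels are given as CPM, the UMIs of a gene over those of its pool times 1000000, and 3 UMIs, the most that a gene at 0 could hold, are 1.41 CPM in the +/+ pool and 0.620 CPM in the fl/fl pool. Cells in which ribosomal protein genes gave under 5% of UMIs made up 12.4% of the +/+ pool (33 cells, exact binomial interval 8.66% to 16.9%) and 6.81% of the fl/fl pool (41 cells, 4.93% to 9.13%). All cells of the series were clustered together, and 239 (89.5%) of the +/+ and 544 (90.4%) of the fl/fl cells fell into clusters that the markers of the bulge name, with all 10 bulge markers above 10 CPM in both pools. The bulge-like class itself differed in makeup: of its 3 main clusters, the first, led by Myoc, held 166 +/+ and 320 fl/fl cells, the second, led by Ccn2, Ccn1 and Fam71a, 42 and 187, and the third, led by Grik1 and with a median of 4694 UMIs, 30 and 36. The genes compared below also shaped these clusters, so their sizes are no result, and their part in the bulge-like values was not tested. The next largest class was upper follicle-like, with 22 and 46 cells. Of the gated cell types, endothelial markers summed to 2.35 and 2.89 CPM in the +/+ and fl/fl pools and immune markers to 2.35 and 0.827 CPM. Cdh5, Kdr, Ptprc, Tyrobp and Lyz2 were at 0 in both, while other members of these lists were above 0. Fibroblast markers summed to 24.4 and 32.2 CPM, with Dcn and Lum at 0 in both. Melanocyte markers summed to 0.938 and 19.6 CPM with 1 and 4 melanocyte-like cells.

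Phgdh was lower in the fl/fl pool and was not gone from it. It was measured at 59.6 CPM (127 UMIs) in unwounded +/+ cells and 19.0 CPM (92 UMIs) in fl/fl cells, a log2 fold of -1.65 (95% counting interval -2.05 to -1.25). Bulge-like cells held 55.1 CPM in +/+ and 9.43 CPM in fl/fl, and the log2 fold was -2.55 (-3.13 to -1.99). Most of the remaining UMIs were outside the bulge-like clusters: 54 of the 92 fl/fl UMIs came from the 58 cells of other classes. Of these 54, 5 cells held 46, and a single cell 23. These classes are clusters of cells that passed the same sort, so they do not give a cell's place in the follicle. In wounded skin +/+ cells held 115 CPM at 3 days and fl/fl cells 17.3 CPM, a log2 fold of -2.73, and after 5 days +/+ cells held 136 CPM and fl/fl cells 21.4 CPM, a log2 fold of -2.67. The fl/fl pools thus stood below their +/+ pools at every stage, and the targeted gene did not go against the labels. Which exons are floxed is not given in the sources used here, so whether the 3′ reads lie in the deleted part is not known.

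To ask how many cells carried the transcript, each cell was thinned to 3000 UMIs, which left out 4 +/+ and 14 fl/fl shallower cells. A Phgdh UMI was then found in 15.6% of +/+ cells (11.4% to 20.5%) and 3.40% of fl/fl cells (2.09% to 5.20%), against 0.596% and 0.585% expected from free RNA. Without thinning the shares were 29.96% and 7.81%. Among bulge-like cells the thinned shares were 15.7% and 3.01%. The share in fl/fl cells, down to the lower end of its interval, was thus above the free RNA level.

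The cut on hashtag share mattered for the gene. The fl/fl cells just inside it, with 70 to 80% of their hashtag UMIs from the fl/fl tag (110 cells), held 16.1 CPM of Phgdh, and those just outside it, at 60 to 70% (56 cells) and 50 to 60% (26 cells), held 78.1 and 62.7 CPM. For 76 of these 82 cells left out the second hashtag was that of a wounded pool. In the +/+ pool the same bins held 74.4 CPM (85 cells), 63.9 CPM (73 cells) and 31.4 CPM (48 cells). With the cut at 50% the Phgdh log2 fold was -0.91.

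The other enzymes of the pathway were close between the pools. Psat1, the aminotransferase of the second step, was at 12.2 CPM in +/+ and 14.3 CPM in fl/fl cells, a log2 fold of 0.23 (-0.44 to 0.94). Psph, the phosphatase of the last step, was at 39.4 and 49.6 CPM, a log2 fold of 0.33 (-0.03 to 0.71), which was 0.08 in bulge-like cells and -0.16 at a hashtag share of at least 90%. Psat1 was at -0.15 under HTODemux calls. At 26 and 69 UMIs of Psat1 a difference inside that interval was not detectable at this depth.

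Genes past a fixed fold were more often lower than higher in fl/fl cells, and the balance depended on scaling. The fold limit for these counts was a log2 fold of 0.32 in either direction. Of 3313 genes whose mean over both pools reached 50 CPM, 137 (4.14%) were past the limit upwards and 311 (9.39%) downwards in fl/fl cells, and 43 (1.3%) and 37 (1.12%) were past 1.5-fold. Scaling by trimmed means (TMM, which shifted every log2 fold by 0.09) gave 230 higher and 155 lower genes past the limit. Over all 6609 genes of at least 20 CPM, the threshold used for gene lists, 39.8% were higher and 60.2% lower, with a median log2 fold of -0.06, and 5.66% were past the limit upwards and 13.6% downwards. In bulge-like cells 41.6% of 6566 genes were higher and 58.4% lower, and 6.26% and 14.5% were past the limit. These shares are the background for each list below.

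The immediate early lists stood higher as a block in the fl/fl pool. Of 63 genes in 3 lists, 48 reached 20 CPM, and 45 of the 48 were higher in fl/fl cells, 32 of them past the limit, with a median log2 fold of 0.51. All genes together had 39.8% higher and 5.66% past the limit. The 63 genes took 1.37% of UMIs in +/+ cells and 2.07% in fl/fl cells. In bulge-like cells, with 41.6% of all genes higher, 43 of 46 measured members were higher, with a median of 0.47. The median was positive under all alternatives run, between 0.36 (HTODemux hashtag calls) and 0.63 (hashtag share of at least 90%).

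The 9 measured members of the AP-1 family, whose FOS, JUN and ATF proteins pair to bind DNA, were all higher, with a median log2 fold of 0.57. Fos was at 1651 CPM in unwounded +/+ cells and 2872 CPM in fl/fl cells, against 1240 CPM (+/+) and 1077 CPM (fl/fl) after 3 days of wounding and 1341 CPM (+/+) and 1223 CPM (fl/fl) after 5 days. The unwounded fl/fl pool was the highest of the 6 pools for Fos, and the unwounded log2 fold was 0.80 (0.75 to 0.85). Jun, the main partner of FOS, was at 1474 and 2182 CPM in the unwounded pools, a log2 fold of 0.57 (0.51 to 0.62), and at 638, 566, 825 and 775 CPM in the wounded pools, +/+ before fl/fl at each stage. Junb went from 378 CPM in +/+ to 644 CPM in fl/fl cells (0.77, 0.66 to 0.88), and Atf3, a stress-induced repressor, from 725 to 1304 CPM (0.85, 0.77 to 0.93). Fosb (971 and 1421 CPM, 0.55) and Jund (869 and 1190 CPM, 0.45) were higher by less. Fosl1 was at 25.3 and 26.0 CPM, near the 20 CPM minimum for lists, and its log2 fold of 0.04 was the smallest of the 9.

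Of the other immediate early transcription factors 14 of 16 measured were higher, with a median log2 fold of 0.47. Klf2, a Krüppel-like factor, had the largest fold of the list, from 36.6 CPM in +/+ to 92.2 CPM in fl/fl cells (1.33, 0.98 to 1.70). Egr1, a zinc finger factor induced by MAP kinase signals, went from 534 to 856 CPM (0.68, 0.59 to 0.78), Ier2 from 190 to 296 CPM (0.64), Klf6 from 214 to 356 CPM (0.73) and Klf4 from 820 to 1116 CPM (0.45). The pair of members that were lower, Cebpb and Klf10, had log2 folds of -0.23 (-0.46 to 0.01) and -0.03 (-0.47 to 0.42).

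Among immediate early effectors and feedback genes 22 of 23 measured were higher, with a median log2 fold of 0.50. Dusp1, a phosphatase that switches off MAP kinases, was at 264 CPM in unwounded +/+ and 554 CPM in fl/fl cells, against 259 to 278 CPM in the 4 wounded pools. The fl/fl pool stood apart from the other 5 for this gene, with a log2 fold of 1.07 (0.94 to 1.20) that was 0.69 under HTODemux calls. Btg2, an antiproliferative regulator of mRNA decay, went from 749 to 1269 CPM (0.76, 0.68 to 0.84), the matricellular Ccn1 from 471 to 821 CPM (0.80, 0.70 to 0.90) and Ccn2 from 980 to 1378 CPM (0.49, 0.42 to 0.56). Zfp36, which speeds decay of AU-rich mRNAs, was at 269 and 409 CPM (0.60), Nfkbia, the NF-κB inhibitor, at 374 and 530 CPM (0.50) and Errfi1, an inhibitor of the EGF receptor, at 169 and 249 CPM (0.55). The single lower member was Ptgs2, at 37.5 and 27.5 CPM (-0.45), with 45% of its +/+ and 39.8% of its fl/fl UMIs from 1 cell each. In bulge-like cells its log2 fold was 0.16.

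**Figure D1:**
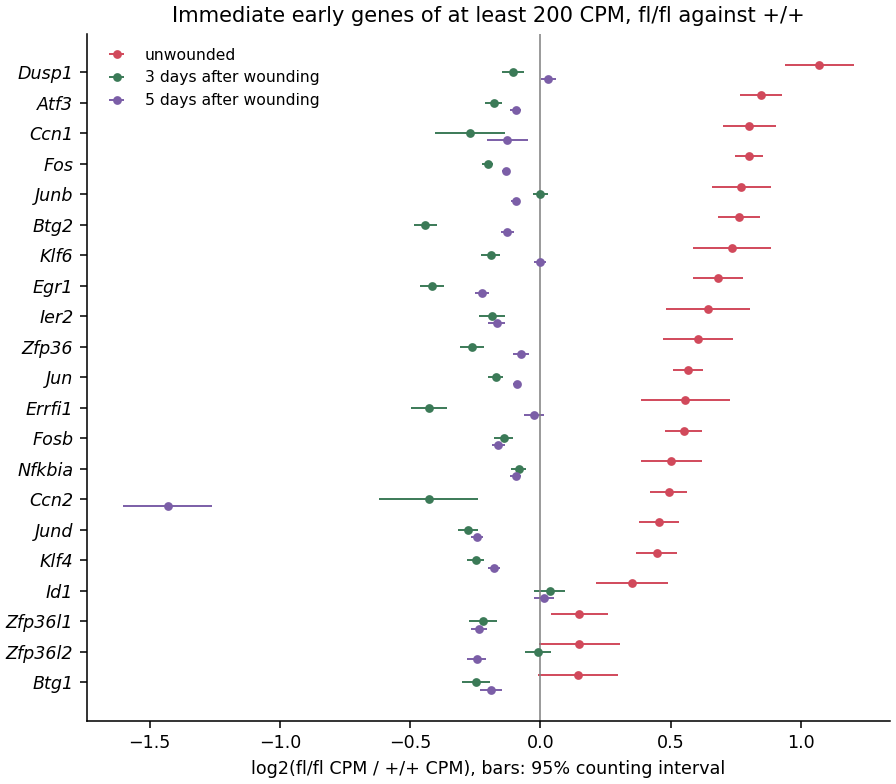
Log2 ratio of fl/fl to +/+ CPM for immediate early genes whose unwounded mean reached 200 CPM, in unwounded skin and at 3 and 5 days after wounding, with 95% counting intervals as bars (1 pool per condition). All unwounded points lie right of 0, from Btg1 at 0.14 to Dusp1 at 1.07, while most wounded points lie at or left of 0.

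The immediate early share varied from cell to cell more than between the pools. Summed over the 63 genes it had quartiles of 0.463%, 0.663% and 1.93% of a cell's UMIs in +/+ cells and 0.521%, 1.11% and 3.41% in fl/fl cells. The lower quartiles were thus close and the upper quartiles apart. Above 2% lay 66 of 267 +/+ cells (24.7%, exact binomial interval 19.7% to 30.3%) and 245 of 602 fl/fl cells (40.7%, 36.7% to 44.7%). With each cell thinned to 3000 UMIs the shares were 24.3% and 41.3%, and among bulge-like cells they were 24.7% and 39.9%. The limit of 2% was set after the distribution was seen, and 23 +/+ and 67 fl/fl cells lay between 1.5% and 2.5%. In the wounded pools the share of cells above 2% was 9.72% (+/+) and 4.52% (fl/fl) at 3 days and 13.2% and 9.41% at 5 days. Melanocyte-like cells of all pools, with a median of 0.506%, were above 2% in 3 of 140 cells. Near the hashtag cut the order of the genotypes was the same, with medians of 0.761% and 1.05% at a hashtag share of 70 to 80% and 0.805% and 1.26% at 60 to 70%.

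**Figure D2:**
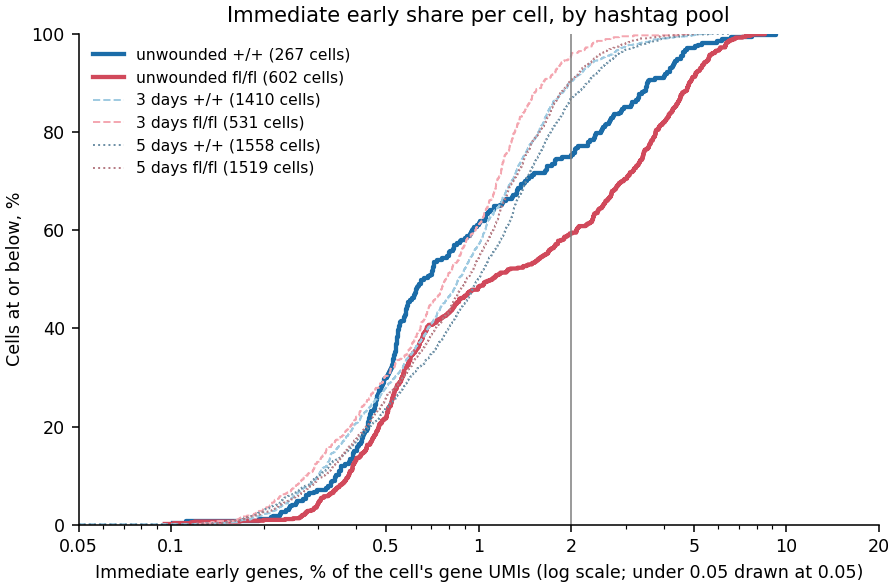
Cumulative share of cells (y axis, %) by the share of a cell's UMIs that the 63 immediate early genes take (x axis, %, log scale) in each of the 6 hashtag pools, with a grey line at 2%. The curves of the unwounded pools run together at low values and part above about the median, where 24.7% of +/+ and 40.7% of fl/fl cells lie beyond the line.

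Promoters of immediate early genes are known to carry binding sites for CREB and ATF proteins, serum response factor and AP-1. In the RefSeq promoter table (GRCm38.p6) 35 of the 48 measured members matched, and the 250 bases before each start were searched on both strands. Members without a window, Egr1 and Ier2 among them, and sites farther upstream were not searched. The full cyclic AMP response element TGACGTCA, which reads alike on both strands, stood in 4 of the 35 genes (11.4%) and in 1.77% of all 27025 genes of the table. The AP-1 site TGANTCA stood in 2 of 35 members (5.71%) and 7.82% of all genes, and the CArG box in 1 (2.86%) and 1.62%. A match is a description of these letters only. The 4 members with the full element were Dusp1, Btg2, Errfi1 and Maff, and the sequence around it is shown with the element in capitals, on the strand of the gene.

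Dusp1, chr17:26508548-26508675, minus strand: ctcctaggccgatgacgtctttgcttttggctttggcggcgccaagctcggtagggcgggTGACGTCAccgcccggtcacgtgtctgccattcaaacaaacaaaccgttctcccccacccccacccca

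Btg2, chr1:134079254-134079381, minus strand: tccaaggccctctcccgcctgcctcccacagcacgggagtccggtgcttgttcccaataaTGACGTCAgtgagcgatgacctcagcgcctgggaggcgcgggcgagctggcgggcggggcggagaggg

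Errfi1, chr4:150854959-150855069, plus strand: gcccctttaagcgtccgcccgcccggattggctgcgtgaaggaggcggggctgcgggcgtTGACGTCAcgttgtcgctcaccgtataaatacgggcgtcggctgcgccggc

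Maff, chr15:79347431-79347519, plus strand: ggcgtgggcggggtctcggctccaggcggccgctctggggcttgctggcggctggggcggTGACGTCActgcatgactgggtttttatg

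Their log2 folds between the unwounded pools were 1.07, 0.76, 0.55 and 0.20 (-0.22 to 0.64). Maff, a small MAF factor at 30.03 and 34.5 CPM, carried the element without a fold beyond counting error.

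A list of glucocorticoid-responsive genes, which shares Dusp1, Errfi1, Sgk1 and Per1 with the immediate early lists, was also higher as a block. Of 12 measured members 11 were higher and 8 past the limit, with a median log2 fold of 0.49. Tsc22d3, an anti-inflammatory leucine zipper protein, was at 152 CPM in +/+ and 235 CPM in fl/fl cells (0.63, 0.45 to 0.81), and the Krüppel-like factor Klf9 at 204 and 288 CPM (0.50, 0.34 to 0.66). The metallothioneins Mt1 and Mt2, which bind zinc and copper, were at 1414 and 2253 CPM (0.67, 0.61 to 0.73) and at 411 and 618 CPM (0.59, 0.48 to 0.70). In bulge-like cells Mt1 and Mt2 had log2 folds of 0.78 and 0.71. The receptor itself, Nr3c1, was at 432 and 426 CPM, a log2 fold of -0.02. Heat shock genes, a further response to stress, were spread: 11 of 15 measured were higher with a median of 0.08, led by the co-chaperone Dnajb1 at 111 and 177 CPM (0.67, 0.46 to 0.88) and by Hspa1a, an inducible HSP70, at 40.8 and 59.7 CPM (0.55, 0.20 to 0.91), the latter with -0.01 under HTODemux calls.

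In bulge-like cells the 12 genes with the highest log2 folds, among genes of at least 50 CPM whose counting interval leaves out 0, were Cdkn1a (1.30), Klf2 (1.27), Fam71a (1.24), Rhob (1.23), Dusp1 (1.06), Homer1 (1.01), Azin1 (1.001), Sertad1 (0.99), Ndrg1 (0.90), Ifrd1 (0.84), Ppp1r15a (0.82) and Mettl23 (0.81). Klf2, Rhob, Dusp1, Homer1 and Sertad1 belong to the immediate early lists. Cdkn1a, the cyclin-dependent kinase inhibitor known from the p53 response, was at 59.7 CPM in bulge-like +/+ and 147 CPM in bulge-like fl/fl cells. In whole pools it was at 74.1 and 172 CPM, below the 217 to 247 CPM of the 4 wounded pools, with a log2 fold of 1.22 (0.97 to 1.47) that was 0.53 under HTODemux calls. A Cdkn1a UMI was found in 12.2% of thinned +/+ and 22.4% of thinned fl/fl cells, against about 1.98% and 1.95% expected from free RNA. Other p53 targets were mixed, with 6 of 9 measured higher and a median of 0.23: Trp53inp1 was at 126 and 185 CPM (0.55), and Mdm2 at 43.6 and 51.3 CPM (0.23). Rhob, a small GTPase of endosomes and actin, went from 35.9 to 84.3 CPM in bulge-like cells. Azin1, the antizyme inhibitor that spares ornithine decarboxylase, went from 110 to 219 CPM (0.77 to 1.24). Fam71a was found in 8.75% of thinned +/+ and 16.2% of thinned fl/fl cells and in 0 of 93 thinned melanocyte-like cells (exact upper bound 3.89% for detection at this depth, with 2.86% unthinned). Homer1, a synaptic scaffold protein, was at 52.2 and 105 CPM in bulge-like cells, and its whole-pool log2 fold of 0.84 was 0.08 at a hashtag share of at least 90%. Ndrg1 had a log2 fold of 0.10 in whole pools, where a single +/+ cell held 33% of its +/+ UMIs.

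The 12 lowest by the same rule were Nrcam (-1.22), Ltbp1 (-1.09), Chd8 (-1.08), Lgr6 (-1.07), Sox5 (-1.06), Mir100hg (-0.81), Prkch (-0.81), Nos1ap (-0.81), Virma (-0.80), Clec2d (-0.77), Ttc28 (-0.76) and Elp4 (-0.74). Nrcam, an adhesion molecule of the immunoglobulin family, went from 89.9 CPM in bulge-like +/+ to 38.7 CPM in bulge-like fl/fl cells. Lgr6, a receptor for R-spondins related to LGR5, was at 104 and 53.9 CPM in the whole unwounded pools and at 17.8, 16.3, 17.3 and 5.41 CPM in the wounded pools, +/+ before fl/fl at 3 and 5 days. It was found in 22.4% of thinned +/+ and 12.6% of thinned fl/fl cells, against 2.15% of melanocyte-like cells. Sox5, a SOXD transcription factor, was at 91.5 and 44.6 CPM (-1.04, -1.32 to -0.75) and in 16.7% and 6.80% of thinned cells. Ltbp1, which holds latent TGF-β in the matrix, was at 71.3 and 33.5 CPM in bulge-like cells, with a log2 fold of -0.61 in whole pools and -0.13 at a hashtag share of at least 90%. Chd8 is a chromatin remodeller, Virma a subunit of the RNA adenosine methyltransferase complex, Elp4 a subunit of Elongator and Mir100hg a long noncoding RNA that hosts microRNAs. Ttc28 was at 55.8 and 37.2 CPM in whole pools (-0.59), and at the 90% hashtag share its log2 fold was 0.12.

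**Figure D3:**
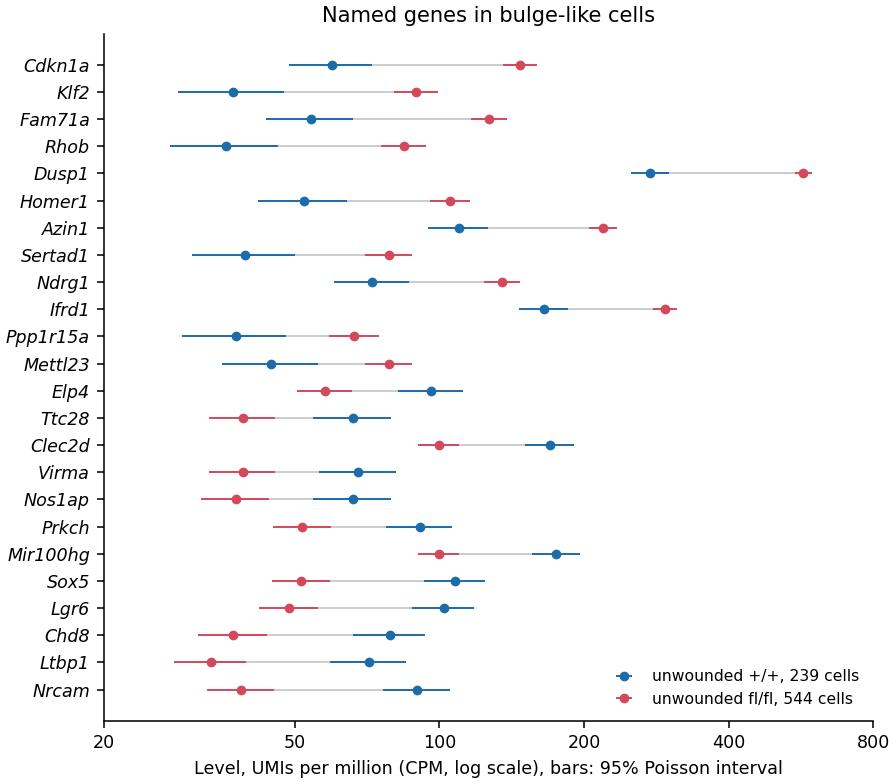
Levels (CPM, log scale) of the 12 highest and 12 lowest named genes in bulge-like cells, 239 +/+ (blue) and 544 fl/fl (red), with 95% Poisson intervals as bars and a grey line joining the pair. The genes were chosen for these folds, so the gap in each row describes the choice, with Cdkn1a at 59.7 and 147 CPM at the top and Nrcam at 89.9 and 38.7 CPM at the bottom.

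The 12 lowest genes were mostly long, and long genes were lower on average. In the RefSeq annotation 9 of the 12 lowest and 1 of the 12 highest spanned over 100 kb, against 17.6% of genes of at least 20 CPM. Sox5 (chr6:143828425-144782287) spans 954 kb, and Fam71a (chr1:191162584-191164817) 2.23 kb. Over 6524 of 6609 genes with a span, the median log2 fold was 0.06 for genes up to 10 kb, -0.02 from 10 to 30 kb, -0.11 from 30 to 100 kb, -0.18 from 100 to 300 kb and -0.18 above 300 kb. Spearman's rho between span and log2 fold was -0.35 across genes, which share these 2 libraries and are not independent replicates. It was -0.42 at 3 days and -0.26 at 5 days. The cells under 5% ribosomal UMIs were a larger share of the +/+ than of the fl/fl pool. Without them rho was -0.17 and the median above 300 kb -0.06, and 196 rather than 311 genes were past the limit downwards. Under the same restriction Sox5 had a log2 fold of -0.98, Lgr6 -0.95, Nrcam -0.81 and Elp4 -0.44, and the immediate early median was 0.54.

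**Figure D4:**
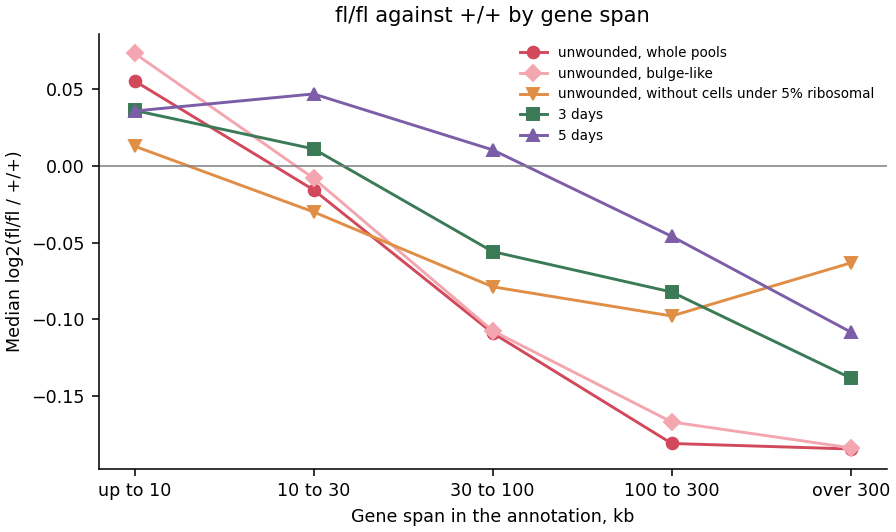
Median log2 ratio of fl/fl to +/+ CPM (y axis) of genes of at least 20 CPM, by gene span in kb (x axis), for the unwounded pools, their bulge-like cells, the pools without cells under 5% ribosomal UMIs, and the wounded pools. The unwounded medians go from 0.06 at the short end to -0.18 at the long end, and from 0.01 to -0.06 without the low-ribosomal cells.

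Transcription factors of the hair follicle stem cell were mostly lower with CPM scaling. Of 20 measured members 2 were higher and 18 lower, 5 of them past the limit. Among all genes 39.8% were higher and 13.6% past the limit downwards. Log2 folds of the members ran from -1.04 to 0.15. Their median was -0.08, which was 0.01 with TMM scaling and -0.16 in bulge-like cells. Sox9, which keeps the bulge in place and whose promoter drives the Cre, was at 252 CPM in +/+ and 188 CPM in fl/fl cells (-0.42, -0.58 to -0.27). Nfatc1, a brake on stem cell division, was at 195 and 153 CPM (-0.34, -0.52 to -0.17, and -0.14 at no more than 5% mitochondrial UMIs), and Tcf7l1, a repressor of WNT targets, at 112 and 73.2 CPM (-0.61, -0.85 to -0.37). Lhx2 (421 and 420 CPM, -0.01), Tbx1 (179 and 174 CPM, -0.04) and Runx1 (151 and 151 CPM) lay at or near equal levels.

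Genes of bulge identity had the same pattern, with 5 of 25 measured members higher, against 39.8% of all genes, and a median of -0.16. Past the limit downwards were 4 of the 25, which is near the 13.6% of all genes. Cd34, on which the cells were sorted, was at 534 and 523 CPM (-0.03, -0.13 to 0.07), a fold of 0.06 with TMM scaling, and Krt15, the bulge keratin, at 12866 and 13996 CPM (0.12, 0.10 to 0.14). Lgr5, the R-spondin receptor of follicle stem cells, was lower, at 720 and 553 CPM (-0.38, -0.47 to -0.29), as were the extracellular protein Myoc (174 and 127 CPM, -0.45, and -0.14 under HTODemux calls) and the malic enzyme Me3 (126 and 98.2 CPM, -0.36). Secreted niche factors numbered 2 higher of 18 measured, with a median of -0.11. Angptl7, an angiopoietin-like secreted protein, was the exception, at 82.6 CPM in unwounded +/+ and 135 CPM in fl/fl cells (0.71, 0.47 to 0.96) and between 0.579 and 1.95 CPM in the wounded pools. The matrix protein Tnc was at 41.8 and 30.6 CPM (-0.45, and -0.036 at the 90% hashtag share).

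WNT and hedgehog genes were lower as a block within the limits of the scaling. Of 18 measured members 1 was higher and 6 were past the limit downwards, against 39.8% and 13.6% of all genes. The median log2 fold was -0.22, and -0.13 with TMM scaling. Genes spanning 100 to 300 kb had a median of -0.18 in the same pools, and the part of gene span in this list was not tested. Ptch1, the hedgehog receptor and a target of the pathway, was at 50.2 and 34.7 CPM (-0.53, -0.89 to -0.17), and Znrf3, an E3 ligase that removes Frizzled receptors, at 89.6 and 63.0 CPM (-0.51, -0.77 to -0.24). Axin2, a general WNT target, was at 31.9 and 25.2 CPM (-0.34). On the BMP side 8 of 16 measured members were higher, with a median of -0.03, and the 4 past the limit were all higher. Id1 and Id3, inhibitors of basic helix-loop-helix factors and targets of BMP, were at 267 and 341 CPM (0.35) and 398 and 502 CPM (0.33), and Nog, which binds and blocks BMPs, at 40.3 and 60.3 CPM (0.58, 0.23 to 0.94). At the 90% hashtag share Id1 had a log2 fold of -0.02.

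Genes of antigen presentation were lower in the unwounded fl/fl pool. Of 10 measured members of an interferon and MHC class I list, 0 were higher and 6 were past the limit downwards, with a median log2 fold of -0.43. B2m, the light chain of MHC class I, was at 299 CPM in unwounded +/+ and 198 CPM in fl/fl cells, and in wounded skin at 201 CPM (+/+) and 187 CPM (fl/fl) after 3 days, then 151 CPM (+/+) and 97.2 CPM (fl/fl) after 5 days. The fl/fl pool was the lower of the pair at each stage for B2m, with an unwounded log2 fold of -0.60 (-0.75 to -0.45). The list as a whole had medians of -0.04 at 3 days (3 of 8 measured higher) and -0.37 at 5 days (0 of 9). H2-K1 at 3 days had a log2 fold of -0.02 (-0.06 to 0.02). The heavy chain genes H2-K1 (335 and 218 CPM, -0.62, -0.76 to -0.48) and H2-D1 (278 and 211 CPM, -0.40, -0.55 to -0.25) are near-identical in parts, so reads may be split between them or lost. In unwounded bulge-like cells the list median was -0.48, and with HTODemux calls the unwounded median was -0.13, with B2m at -0.30 and H2-D1 at -0.13. The searched part of the B2m promoter holds the letters GAAA 2 times, 2 bases apart, as interferon-type elements do. This motif stood in 2 of the 7 members with a window (28.6%), B2m and H2-T23, and in 3.46% of all genes of the table, and it is in capitals here.

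B2m, chr2:122147488-122147617, plus strand: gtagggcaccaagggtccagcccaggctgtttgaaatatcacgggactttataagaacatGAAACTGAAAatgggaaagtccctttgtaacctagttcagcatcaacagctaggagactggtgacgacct

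Pathways that use or sense serine had list medians near 0. One-carbon and glycine genes numbered 6 higher of 12 measured, with a median of -0.02 that was 0.35 at a hashtag share of at least 90%. Mthfd1, the cytosolic folate enzyme with several activities, was the lowest, at 46.9 and 29.1 CPM (-0.69, -1.07 to -0.30), and Mat2a, which makes S-adenosylmethionine, the highest, at 115 and 166 CPM (0.53, 0.32 to 0.74, and 0.20 at a hashtag share of 50%). Sphingolipid and phosphatidylserine genes had a median of -0.04 (6 of 15 higher), transsulfuration, glutathione and redox genes -0.02 (9 of 19 higher), and cytosolic aminoacyl-tRNA synthetases -0.02 (6 of 15 higher). With TMM scaling the one-carbon, sphingolipid and synthetase medians were 0.07, 0.04 and 0.06, so none of the 3 had a direction that held.

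Targets of ATF4 numbered 6 higher of 11 measured, with a median of 0.14 that was -0.04 under HTODemux calls. The pair that led was Atf3, already counted above, and Ppp1r15a, the subunit that returns eIF2α to its unphosphorylated state, at 44.1 and 67.2 CPM (0.61, 0.27 to 0.95, and 0.22 under HTODemux). Atf4 itself was at 71.8 and 83.7 CPM (0.22, -0.05 to 0.50), and at 59.1 and 80.9 CPM in bulge-like cells (0.45, 0.13 to 0.79). Asns, asparagine synthetase and a canonical target, was at 19.2 and 18.2 CPM (-0.08). Chac1 and Trib3 were below 5 CPM in both pools. ATF4 is controlled mainly in translation, which these counts do not measure.

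Of 6 measured amino acid transporters 2 were higher, with a median of -0.08 that was 0.01 with TMM scaling. The higher pair was Slc38a2, a carrier of small neutral amino acids, at 672 and 837 CPM (0.32, 0.23 to 0.40), and the taurine carrier Slc6a6, at 1095 and 1252 CPM (0.19, 0.12 to 0.26). Slc1a4 and Slc1a5, carriers that also take serine, were at 3.28 and 6.82 CPM and at 3.75 and 5.99 CPM, under the minimum for lists. Among genes of glutamine handling 5 of 7 measured were higher, with glutamine synthetase Glul at 47.9 and 68.8 CPM (0.52, 0.20 to 0.86). Subunits of oxidative phosphorylation encoded in the nucleus were higher in 55 of 69 by little, with a median of 0.07 and 1 past the limit in each direction.

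**Figure D5:**
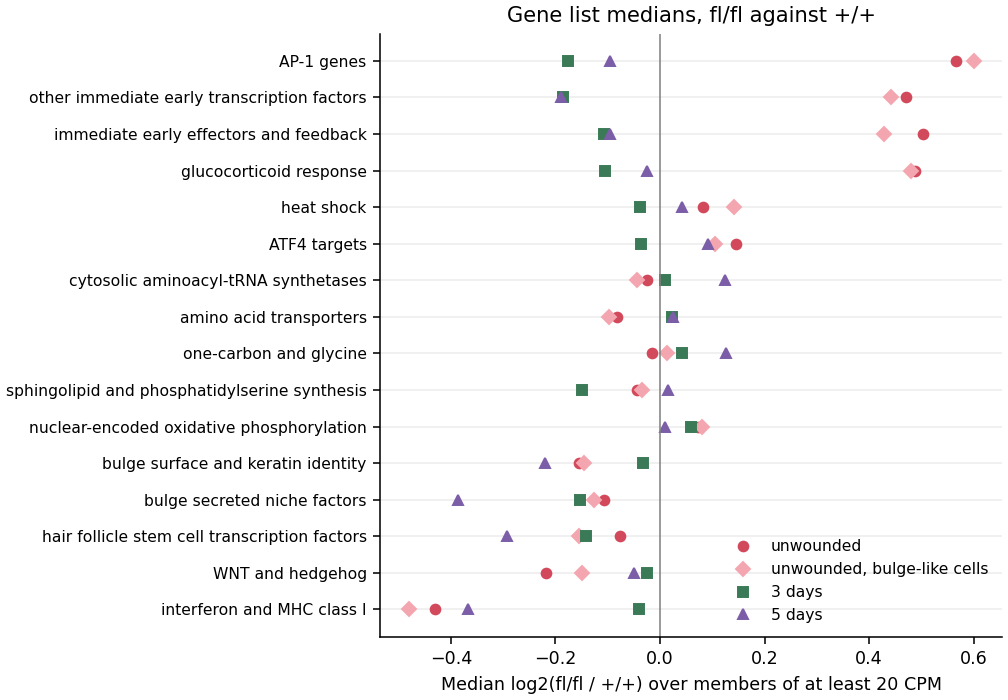
Median log2 ratio of fl/fl to +/+ CPM over the measured members of 16 gene lists (rows), for unwounded pools, their bulge-like cells, and the pools at 3 and 5 days. The 3 immediate early lists and the glucocorticoid list lie between 0.47 and 0.57 in the unwounded pools and left of 0 in the wounded pools, and the interferon and MHC class I list lies at -0.43 in the unwounded pools.

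Members of the list of quiescence regulators, which holds both inhibitors and drivers of the cell cycle, had both signs. Of 13 measured members 5 were higher and 8 lower, with a median of -0.23 that was -0.095 under HTODemux calls. Cdkn1a and Foxo1, a factor of quiescent cells (102 and 150 CPM, 0.56, 0.34 to 0.79), were higher, and the D-type cyclin Ccnd2 (88.2 and 55.8 CPM, -0.66) and the kinase Cdk6 (69.9 and 48.2 CPM, -0.54) lower. In bulge-like cells Ccnd2 had a log2 fold of -0.35 (-0.71 to 0.02), and 1 cell held 19.7% of its whole-pool +/+ UMIs. Mki67, a marker of cycling cells, was at 19.7 and 17.1 CPM (-0.20, -0.75 to 0.37), with 38% and 28% of its UMIs from 1 cell of each pool. In bulge-like cells it was at 15.1 and 5.95 CPM (-1.34, -2.20 to -0.48), but its whole-pool log2 fold was 0.53 without the cells under 5% ribosomal UMIs and 3.18 at a hashtag share of at least 90%. Mki67 thus had no direction that held. Cycling cells were few, with 1 and 2 cells in cycling-like clusters.

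Most other lists lay within 0.25 of 0 in whole pools. TMM scaling adds 0.09 to each median, so those between -0.09 and 0, here and above, have no direction that holds under both scalings. Medians were -0.08 for purine and pyrimidine synthesis (4 of 11 higher), 0.11 for polyamines (7 of 11), -0.06 for regulators of the integrated stress response (5 of 13), -0.18 for mitochondrial aminoacyl-tRNA synthetases (2 of 7) and 0.15 for the unfolded protein response (13 of 15). They were -0.16 for glycolysis (3 of 13), -0.02 for hypoxia (4 of 9), 0.09 for cholesterol synthesis (7 of 11), -0.15 for fatty acid synthesis (5 of 11), 0.08 for autophagy and lysosome (11 of 20) and -0.094 for nutrient sensing by mTORC1 (3 of 14). Hemidesmosome and basement membrane genes had a median of -0.13 (5 of 19), desmosome and tight junction genes 0.02 (10 of 18), actin and YAP targets 0.01 (12 of 21), clock genes -0.09 (4 of 11), the EGF family and its signalling -0.17 (6 of 15), and genes of the G1 to S step 0.17 (3 of 5). In bulge-like cells the glycolysis median was 0.04 (8 of 12 higher), so glycolysis had no direction that held. There the medians were 0.26 for hypoxia (7 of 8) and 0.26 for cholesterol synthesis (7 of 7).

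Of the 5 highest and 5 lowest genes of the whole pools, several were set by single deep cells. S100a8, S100a9 and Sprr1a, which mark wounded and differentiating keratinocytes, had the highest whole-pool log2 folds, 3.51, 3.46 and 2.81, and 1 fl/fl cell held 89.6%, 93.4% and 84.3% of their fl/fl UMIs. In bulge-like cells their log2 folds were 0.56, -0.20 and 0.18, and a list of suprabasal differentiation genes went from a median of 0.45 in whole pools to -0.03. Klf2 and Fam71a, also among the 5 highest, had no more than 8.97% of a pool's UMIs in 1 cell. The lowest were Krt79 (-1.33), a keratin of the upper follicle, and Krt77 (-1.09), with 1 +/+ cell holding 64% and 95% of the +/+ UMIs, while Sox5 and Nrcam, also among the 5 lowest, had no more than 7.41%. Upper follicle markers summed to 1315 and 874 CPM in the whole pools and to 418 and 379 CPM in bulge-like cells.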

How the data were processed

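The deposited matrix holds UMI counts per gene or hashtag and barcode, per the file headers, for 1 capture with 6 hashtags. Per the submitters' processing notes the authors used Cell Ranger 7.1.0 (mm10) and Seurat 4.3.0. The gene and hashtag libraries are of the same cells: all 5887 cells are barcodes of both. Cells were selected as the report states. The hashtag rule leaves out barcodes with near-equal hashtags. Doublets within a hashtag, and those with an unequal second hashtag, can stay, no doublet caller was run, and 7 +/+ and 13 fl/fl cells held over 2 times the median UMIs.

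UMIs were summed over a pool and scaled to its total (CPM). Folds carry exact conditional binomial, levels exact Poisson and shares Clopper-Pearson intervals, all at 95% (scipy 1.17.1). UMIs remove PCR copies, and the intervals cover counting error only. Clusters were made with scanpy 1.11.5 (2000 variable genes, 30 components, 15 neighbours, Leiden resolution 1) and named by fixed marker lists. A named cluster needs at least 3 markers of at least 10 CPM and 2-fold above other cells. Free RNA was taken from 65043 barcodes of 100 to 399 UMIs. Symbols, spans and promoters are RefSeq's (GRCm38.p6). On simulated counts at the real depths (6609 genes) a log2 fold of 1 was recovered at a median of 1.02, and intervals held the true value for 95.6% of genes without a change. These counts were drawn from the Poisson model that the intervals assume, so they check the calculation only. They do not show how the intervals hold for UMIs that gather in few cells.

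The members, the 42 gene lists and the rule for named genes were chosen with earlier results of these data known, so no list is independent support. Named genes were the 12 highest and 12 lowest in bulge-like cells and 5 at each end in whole pools (at least 50 CPM, interval without 0, no mitochondrial, ribosomal, Gm, Rik, Xist or Y-linked genes), up to 4 members per list with the largest folds, and fixed genes (Phgdh, Psat1, Psph, Atf4, Cd34, Lgr5, Krt15, Sox9, Fos, Junb, Egr1 and Mki67). Others (Fosl1, Jun, Fosb, Jund, Klf4, Klf10, Cebpb, Ier2, Zfp36, Nfkbia, Ptgs2, Maff, Errfi1, H2-D1, Klf9, Nr3c1, Mdm2, Lhx2, Tbx1, Runx1, Axin2, Asns, Chac1, Trib3, Slc1a4, Slc1a5 and Cdk6) were added after their values were seen. Which lists to describe was decided from their values. Alternatives used HTODemux (Seurat 5.3.0) and TMM (edgeR 4.0.16).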

Additional observations from a re-analysis of the deposited data

Results flagged for a closer look

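Some genes and lists had fl/fl to +/+ log2 ratios of one sign in unwounded pools and the other at 3 and 5 days. Only a part of them is given here, so the set is not complete, and none of these differences was tested. Unwounded values stand first, then 3 and 5 days. Others with this pattern include Fosl2 (0.62, -0.19 and -0.08), Bcat2 (0.50, -0.43 and -0.25), Dnajb9 (0.48, -0.17 and -0.16) and Hspb8 (0.45, -0.24 and -0.21). The glycolysis list had the opposite signs, with medians of -0.16, 0.07 and 0.20, the first being 0.04 in bulge-like cells. The immediate early lists had medians of 0.57, -0.18 and -0.09 (AP-1 genes), 0.47, -0.19 and -0.19 (other transcription factors) and 0.50, -0.11 and -0.09 (effectors and feedback), and 0.51, -0.16 and -0.13 over the 3 lists together. Among their members Fos had log2 ratios of 0.80, -0.20 and -0.13, Fosb 0.55, -0.14 and -0.16, Jun 0.57, -0.17 and -0.09, Jund 0.45, -0.28 and -0.24, and Atf3 0.85, -0.18 and -0.09. Egr1 had 0.68, -0.41 and -0.22, Ier2 0.64, -0.19 and -0.17, and Klf4 0.45, -0.25 and -0.18. Btg2 had 0.76, -0.44 and -0.13, Zfp36 0.60, -0.26 and -0.07, Nfkbia 0.50, -0.08 and -0.09, Homer1 0.84, -0.29 and -0.41, Ccn1 0.80, -0.27 and -0.13, and Ccn2 0.49, -0.43 and -1.43.

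Outside those lists Ifrd1 had log2 ratios of 0.76, -0.47 and -0.10, the co-chaperone Dnajb1 0.67, -0.20 and -0.15, Trp53inp1 0.55, -0.19 and -0.40, Klf9 0.50, -0.21 and -0.74, and the glucocorticoid list medians of 0.49, -0.11 and -0.03. From various other lists, Angptl7 had 0.71, -1.75 and -1.48, Krt15 0.12, -0.25 and -1.16, the matricellular Thbs1 0.70, -0.84 and -0.91, Glul 0.52, -0.62 and -0.80, Slc6a6 0.19, -0.15 and -0.57, and Id3 0.33, -0.39 and -0.32. The suprabasal list had medians of 0.45, -0.13 and -0.07, the first being -0.03 in bulge-like cells. Bulge-like cells made up 16.1% and 17.7% of the +/+ and fl/fl pools at 3 days and 11.5% and 4.41% at 5 days, against 89.5% and 90.4% in unwounded skin, and the part of this difference in makeup was not tested. The wounded +/+ pools held 420 and 343 cells called female and the wounded fl/fl pools 0, so those pools also differed in sex, whose part was not tested.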

How the results depend on the processing

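Of 1540 values recomputed for 110 results under 15 settings, 1258 stayed within the main interval or range, 269 moved beyond it in the same direction or from an uncalled value, and 13 reversed. Reversals were S100a9 (-0.19 at a hashtag share of 90%, -0.24 with HTODemux, -0.20 in bulge-like cells, -0.16 without its highest cell, -0.23 without cells over 2 times the median UMIs), S100a8 (-0.27) and Sprr1a (-2.06) with HTODemux, the suprabasal median (-0.41 with HTODemux, -0.031 in bulge-like cells, -0.0098 without the deep cells), Hspa1a (-0.014, HTODemux), and Ttc28 (0.12) and Id1 (-0.018) at the 90% share. The log2 fold of Phgdh, -1.65, was -1.10 with HTODemux, -2.55 in bulge-like cells, -2.31 with equal weight per cell, -0.91 at a hashtag share of 50% and -2.55 without the deep cells. Counts higher by at least 0.32 (log2), 137, were 208 at 5% mitochondrial, 333 at the 90% share, 230 with TMM and 374 at a minimum of 20 CPM. Counts lower by at least 0.32, 311, were 678 at the 90% share, 195 with HTODemux, 155 with TMM, 900 at 20 CPM and 196 without cells under 5% ribosomal. Counts at least 1.5-fold higher, 43, were 81 at 5% mitochondrial, 103 at the 90% share, 20 with HTODemux and 99 at 20 CPM, and at least 1.5-fold lower, 37, were 198 at the 90% share, 75 at 100 hashtag UMIs, 22 with TMM, 171 at 20 CPM and 19 at the 50% share. The 20 CPM setting tests more genes and the 90% share has fewer cells (92 and 240); the cause was not tested for the rest. HTODemux kept 395 +/+ and 657 fl/fl cells, of which 261 and 583 are members here. The settings of a 50% share, without deep cells and without low-ribosomal cells were chosen after seeing the data. No paired analysis was possible because each genotype is 1 pool with no replicate number, and depth limits Psat1, Chac1, Trib3, Slc1a4 and Slc1a5, all below 15 CPM.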
